A study of Mus musculus with 12 samples.

Results

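Sox1, Neurog1, Neurog2, Neurog3, Olig2, Atoh1, Neurod1 and Nes are 8 mouse genes of early neural development, and their surroundings were examined in ATAC-seq peak lists of embryonic stem cells. ATAC-seq marks open chromatin by letting Tn5 transposase insert sequencing adapters into accessible DNA. The genes were chosen by name, and a peak belonged to a gene if it overlapped the gene's GRCm38 span or the 10 kb on either side. Over all libraries 268 peaks met this rule, and overlapping ones merged into 29 regions, of 97889 merged regions genome-wide and 8 of 21883 protein-coding genes.

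The cells were a hybrid mouse embryonic stem cell line (BL6xCAST in the labels) with a synthetic DNA on chromosome X. The synHPRT1R cells carried the reversed sequence of the human HPRT1 locus and the synHPRT1 cells carried that locus in its normal orientation, and both kinds grew without feeder cells on gelatin in medium with LIF and the inhibitors CHIR99021 and PD0325901. Each genotype had 6 libraries, 3 replicates from each of 2 clones, and no line without a synthetic DNA was analysed here. The study was set up to measure access of the synthetic sequences, so these neural genes, all on autosomes, lie outside its target.

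Sox1 is a transcription factor of the SoxB1 group and one of the earliest markers of neural commitment. Neurog1, Neurog2, Neurog3, Atoh1, Neurod1 and Olig2 belong to the basic helix-loop-helix (bHLH) family, whose proneural members bind E-boxes as dimers with E proteins, commit progenitors to a neuronal fate and are held back by Notch signalling through Hes proteins. Nes encodes nestin, an intermediate filament protein of neural progenitors. In embryonic stem cells developmental regulators of this kind are mostly silent, and many have CpG-rich promoters bound by Polycomb proteins and marked by both activating and repressive histone modifications. The peak lists report access, not expression, and how many of the cells were open at a site cannot be told apart from how open each of them was.

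The promoter sequences of 6 members are shown, since they include the highest and the lowest of the 8 in CpG content and in access measured over them. Each runs from 250 bases before to 50 bases after the RefSeq start site (GRCm38.p6), 5′ to 3′ on the gene's strand, so the start site lies 50 bases from the right-hand end. Capitals mark the octamer ATGCAAAT, the motif of POU factors such as Oct4, the TATA-like TATAAA and the CCAAT box, each on either strand, so that CCAAT on the opposite strand reads ATTGG. These motifs were chosen after the sequences had been seen.
Sox1 promoter, chr8:12395269-12395568, plus strand: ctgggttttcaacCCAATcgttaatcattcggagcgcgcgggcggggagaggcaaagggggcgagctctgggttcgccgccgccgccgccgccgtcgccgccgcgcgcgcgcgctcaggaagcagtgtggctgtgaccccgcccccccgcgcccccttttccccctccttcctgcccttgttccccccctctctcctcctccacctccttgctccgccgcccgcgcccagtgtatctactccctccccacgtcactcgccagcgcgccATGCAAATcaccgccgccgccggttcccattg
Neurog1 promoter, chr13:56252131-56252430, minus strand: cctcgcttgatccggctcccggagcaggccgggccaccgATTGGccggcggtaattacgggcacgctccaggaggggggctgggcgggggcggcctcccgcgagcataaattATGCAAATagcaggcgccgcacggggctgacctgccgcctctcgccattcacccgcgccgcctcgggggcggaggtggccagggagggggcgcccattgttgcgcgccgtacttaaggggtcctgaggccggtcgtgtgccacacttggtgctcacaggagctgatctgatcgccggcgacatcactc
Neurog2 promoter, chr3:127632886-127633185, plus strand: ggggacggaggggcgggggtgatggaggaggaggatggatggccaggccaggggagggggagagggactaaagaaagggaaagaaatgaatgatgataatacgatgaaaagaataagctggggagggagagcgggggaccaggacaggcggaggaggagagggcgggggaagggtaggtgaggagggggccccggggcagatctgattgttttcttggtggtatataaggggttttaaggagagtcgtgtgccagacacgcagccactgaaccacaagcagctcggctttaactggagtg
Neurog3 promoter, chr10:62132840-62133139, plus strand: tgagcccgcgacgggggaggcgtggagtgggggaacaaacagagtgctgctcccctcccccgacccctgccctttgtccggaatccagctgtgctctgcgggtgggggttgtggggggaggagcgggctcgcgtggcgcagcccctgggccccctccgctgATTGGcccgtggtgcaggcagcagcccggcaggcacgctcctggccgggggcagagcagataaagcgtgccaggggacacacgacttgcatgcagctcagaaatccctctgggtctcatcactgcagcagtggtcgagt
Olig2 promoter, chr16:91225300-91225599, plus strand: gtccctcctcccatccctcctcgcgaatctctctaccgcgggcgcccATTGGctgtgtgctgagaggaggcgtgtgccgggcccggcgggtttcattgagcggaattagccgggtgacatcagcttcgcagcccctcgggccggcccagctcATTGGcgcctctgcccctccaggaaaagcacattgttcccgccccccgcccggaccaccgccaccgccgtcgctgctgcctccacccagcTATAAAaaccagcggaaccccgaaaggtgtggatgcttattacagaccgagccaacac
Atoh1 promoter, chr6:64728875-64729174, plus strand: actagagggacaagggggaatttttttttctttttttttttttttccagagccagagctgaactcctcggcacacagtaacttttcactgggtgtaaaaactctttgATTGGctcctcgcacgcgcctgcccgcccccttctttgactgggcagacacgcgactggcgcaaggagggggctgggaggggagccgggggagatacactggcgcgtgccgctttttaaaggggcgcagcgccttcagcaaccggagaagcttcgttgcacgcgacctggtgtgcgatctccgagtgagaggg

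The octamer stood in the Sox1 promoter, starting 18 bases after the start site, and in that of Neurog1, starting at -138. It was found in 1.66% of the 21262 promoters of protein-coding genes and in 1.11% of the CpG-rich ones, meaning a GC content of at least 50% and a ratio of observed to expected CpG of at least 0.6. Olig2 had TATAAA at -8, a string found in 12.6% of all and 4.52% of CpG-rich promoters. CCAAT was present in Sox1, Neurog1, Neurog3, Olig2 and Atoh1, in 38.2% of all and in 36.1% of CpG-rich promoters. The GC box CCGCCC, on either strand, stood in 7 of the 8 (not in Neurog3), in 46.2% of all and in 76.8% of CpG-rich promoters. The E-box CANNTG stood in Neurog1, Neurog3 and Neurod1, in 69.0% of all and in 58.1% of CpG-rich promoters.

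The ratio of observed to expected CpG set Neurog2 and Neurog3 apart from the rest, and GC content and CpG number did not do so for both. GC content ran from 56.7% in Atoh1 to 70.7% in Sox1, with 58.0% in Neurog2 and 68.3% in Neurog3. The Sox1 promoter had 37 CpG dinucleotides in its 300 bases, Neurog1 32, Neurod1 26, Olig2 25, Atoh1 20, Neurog3 19, Nes 18 and Neurog2 10. The ratio of observed to expected CpG was 1.07 in Sox1, 0.891 in Neurog1, 0.840 in Atoh1, 0.837 in Neurod1, 0.815 in Olig2 and 0.702 in Nes, against 0.570 in Neurog2 and 0.547 in Neurog3. By the bounds given above, 6 of the 8 members had a CpG-rich promoter, as did 45.1% of all promoters.

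**Figure D1:**
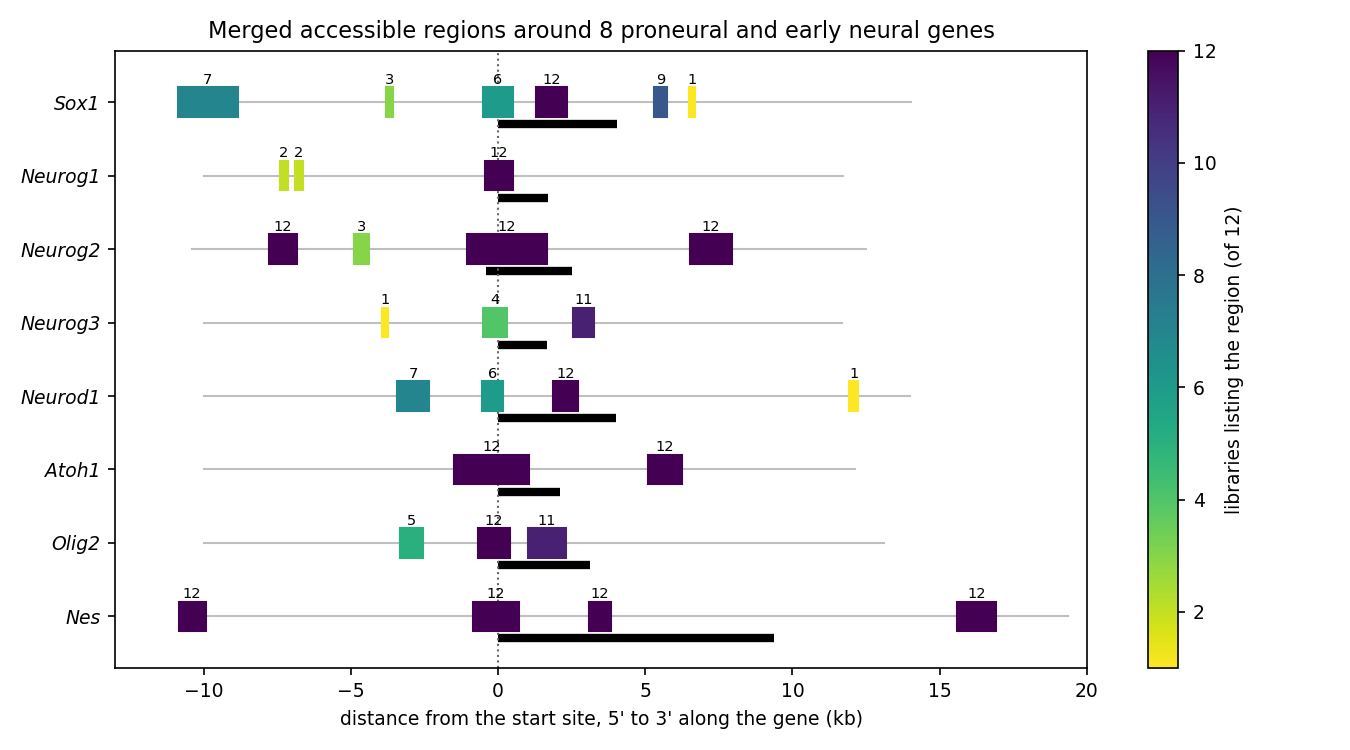
Merged accessible regions around the 8 genes, placed by distance from the start site in kb, 5′ to 3′ along each gene. Black bars are gene spans, grey lines the searched windows, and box colour and number give the libraries of 12 that list the region; Nes, Neurog2 and Atoh1 have 4, 3 and 2 regions in all 12, and Neurog3 has none.

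Access around these genes was uneven: 13 of the 29 regions were listed in all 12 libraries and 16 in 1 to 11, of which 7 were in at most 3. Genome-wide 23.8% of merged regions were in all 12. Nes held 4 of the 13 shared regions, Neurog2 held 3, Atoh1 held 2, and Sox1, Neurog1, Olig2 and Neurod1 held 1 each. Neurog3 had no region in every library. By place, 2 of 10 upstream regions, 5 of 8 over the start site, 3 of 4 inside the gene and 3 of 7 downstream were in all 12.

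Strength was read as a rank within each list, because folds of different lists are not on a common scale. The authors' fold is the signal at a peak's summit over the local background, and the percentile used here is the share of peaks in the same list with a lower fold. Over the 13 shared regions the median percentile ran from 30.8 to 92.6, with a median of 72.3, close to the 73.9 of all 23285 shared regions. A median percentile above 50 was reached by 9 of the 13, and by 85.6% of all shared regions. Over the 16 partial regions it ran from 0.601 to 32.2, with a median of 12.3, against 19.8 for all 74604 partial regions. None of the 16 passed a median of 50, as 8.15% of all partial regions did.

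Ranked by fold, in 6 of the 8 genes the region with the highest median percentile did not lie over the start site, the exceptions being Neurog1 and Olig2. In Neurog2 the region that spans the start site also had its summits well inside the gene. This count depends on the measure, and the same share over all genes was not determined. In Atoh1 the medians by fold were close, 72.3 over the start site and 76.3 downstream. Ranked by p-value, the start-site regions of Neurog2 and Atoh1 stood above the downstream ones in most libraries. In synHPRT1 clone 1 replicate 1, where the gaps were wide, these percentiles were 85.3 against 64.3 in Neurog2 and 90.3 against 73.4 in Atoh1. In synHPRT1R clone 1 replicate 1 they were 86.8 against 86.6 in Neurog2. The order was reversed for Neurog2 in synHPRT1R clone 2 replicate 1, at 81.3 against 92.7. For Atoh1 it was reversed in several libraries, among them synHPRT1 clone 2 replicate 3, at 68.7 against 81.6.

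Nes had the highest-ranking region of the set. It lay at chr3:87960244-87961166, with its summit at -10084 bp from the Nes start site, and overlapped the RefSeq gene Gm32518. The region crossed the window edge, and its summits, from -10203 to -10043 bp over the libraries, lay outside the 10 kb flank. Its percentile was 51.9 at the lowest, 85.6 at the median and 98.6 at the highest in synHPRT1R libraries, and 89.5, 96.3 and 98.9 in synHPRT1 libraries. The fold ran from 5.37 to 12.2 over the 12 libraries. A second Nes region, at chr3:87974168-87974922 with its summit 3461 bp after the start site, was in all 12 at a median percentile of 72.3. Nes is known for a neural enhancer in its second intron, and whether this peak is that enhancer was not tested. The region over the Nes start site, chr3:87970240-87971821, was in all 12 but ranked low, at a median percentile of 34.2 and between 3.85 and 54.6. The most distal, at 16024 bp and overlapping Bcan (brevican, a proteoglycan of brain matrix), had a median percentile of 66.1. The start site of Nes was thus below its 3 other regions in median rank.

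Sox1 had the most regions, 6, and only 1 of them in every library. That one, chr8:12396826-12397875, had its summit 1775 bp inside the gene, where the RefSeq gene Sox1ot also runs. Its percentile was 26.8 at the lowest, 30.6 at the median and 62.3 at the highest in synHPRT1R libraries, and 5.33, 33.8 and 52.2 in synHPRT1 libraries. The start-site region, chr8:12394995-12396013, was listed in 3 of 6 synHPRT1R and 3 of 6 synHPRT1 libraries, and where listed it ranged from the 0.479th to the 63.0th percentile. A downstream region at 5502 bp was in 4 synHPRT1R and 5 synHPRT1 libraries, and an upstream one at -9733 bp in 4 and 3. The -9733 bp region reached past the window edge, and 1 further library had a peak only in the part outside. The other 2 regions were in 3 libraries and in 1. The Sox1 promoter, the most CpG-dense of the set, had a peak over its 300 bases in 5 of 12 libraries.

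The 3 neurogenins, which start the neuronal programme in different parts of the nervous system and, for Neurog3, the endocrine programme of the pancreas, differed widely. Neurog2 had 57 peaks over the 12 libraries, Neurog1 16 and Neurog3 16, in windows of 22904, 21703 and 21674 bp.

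Neurog2 was flanked by strong regions on both sides. The upstream one, chr3:127625362-127626304, with its summit at -7634 bp and overlapping Gm40147, had a median percentile of 75.5 in synHPRT1R and 72.3 in synHPRT1 libraries. The downstream one, chr3:127639669-127641076 with its summit at 6932 bp, had medians of 82.4 and 87.6. A broad region of 2723 bp over the gene, chr3:127632074-127634796, had medians of 76.6 and 83.5 and was the longest shared region of the set. Its strongest summits lay between 1043 and 1249 bp after the start site in all 12 libraries, and none fell within the 300 bases of the promoter, which a peak reached in 7 libraries. The start site used for Neurog2, at 127633136, lies inside the RefSeq gene span, which begins at 127632733. Distances and promoter values of Neurog2 rest on that site. A weak region at -4654 bp was in 0 of 6 synHPRT1R and 3 of 6 synHPRT1 libraries.

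Neurog1 had a single shared region, chr13:56251672-56252619 over its start site. The percentile was 27.2 at the lowest, 53.6 at the median and 57.3 at the highest in synHPRT1R libraries, and 4.62, 46.3 and 53.5 in synHPRT1 libraries. In 9 libraries the summit lay within the 300 bases printed above. Upstream regions at -6778 and -7226 bp were listed in 2 libraries each.

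Neurog3 ranked lowest of the 8 and was the only member without a region in all 12 libraries. Its start-site region, chr10:62132579-62133391, was in 2 of 6 synHPRT1R and 2 of 6 synHPRT1 libraries at a median percentile of 5.67. A downstream region, chr10:62135644-62136355 with its summit at 2843 bp, was in 5 and 6 libraries at a median of 18.1. The third was in 1 library. The synHPRT1R clone 1 replicate 3 library listed no peak in the Neurog3 window.

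Neurod1, a bHLH factor that acts after the neurogenins in neuronal differentiation, ranked high inside its span and low at its start. The inner region, chr2:79453910-79454753, had its summit between 2249 and 2347 bp after the start site in all 12 libraries. Its percentile was 83.1 at the lowest, 84.6 at the median and 89.0 at the highest in synHPRT1R libraries, and 69.2, 90.4 and 95.7 in synHPRT1 libraries. The start-site region, chr2:79456461-79457164, was listed in 4 synHPRT1R and 2 synHPRT1 libraries at a median percentile of 17.2. An upstream region at -2523 bp was in 2 synHPRT1R and 5 synHPRT1 libraries at a median of 8.97. Neurod1 thus paired the second-highest median of the shared regions, 85.9, with a start-site region absent from 6 lists.

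Atoh1, which drives the fate of cerebellar granule neurons and inner-ear hair cells, had 2 regions and both were in all 12 libraries. The start-site region, chr6:64727623-64730170, spanned 2548 bp and overlapped the lncRNA gene Gm35851. Its percentile was 68.4 at the lowest, 69.5 at the median and 81.9 at the highest in synHPRT1R libraries, and 51.7, 76.2 and 80.7 in synHPRT1 libraries. The downstream region, chr6:64734211-64735370 with its summit at 5498 bp, had 67.8, 76.4 and 89.6 in synHPRT1R libraries and 61.1, 76.3 and 83.1 in synHPRT1 libraries. Each of the pair was the stronger one in 6 libraries. Atoh1 has a known autoregulatory enhancer downstream of the gene, and whether the downstream peak is that enhancer was not tested.

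Olig2, which specifies motor neurons and oligodendrocytes, had a shared region over the start site, chr16:91224865-91225967. The percentile was 16.3 at the lowest, 25.9 at the median and 47.6 at the highest in synHPRT1R libraries, and 7.03, 42.9 and 67.8 in synHPRT1 libraries. A region inside the gene at 1445 bp was in 6 and 5 libraries at a median of 20.4, and one at -2983 bp in 2 and 3 libraries at 4.72. All 3 Olig2 regions thus had median percentiles below 50.

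**Figure D2:**
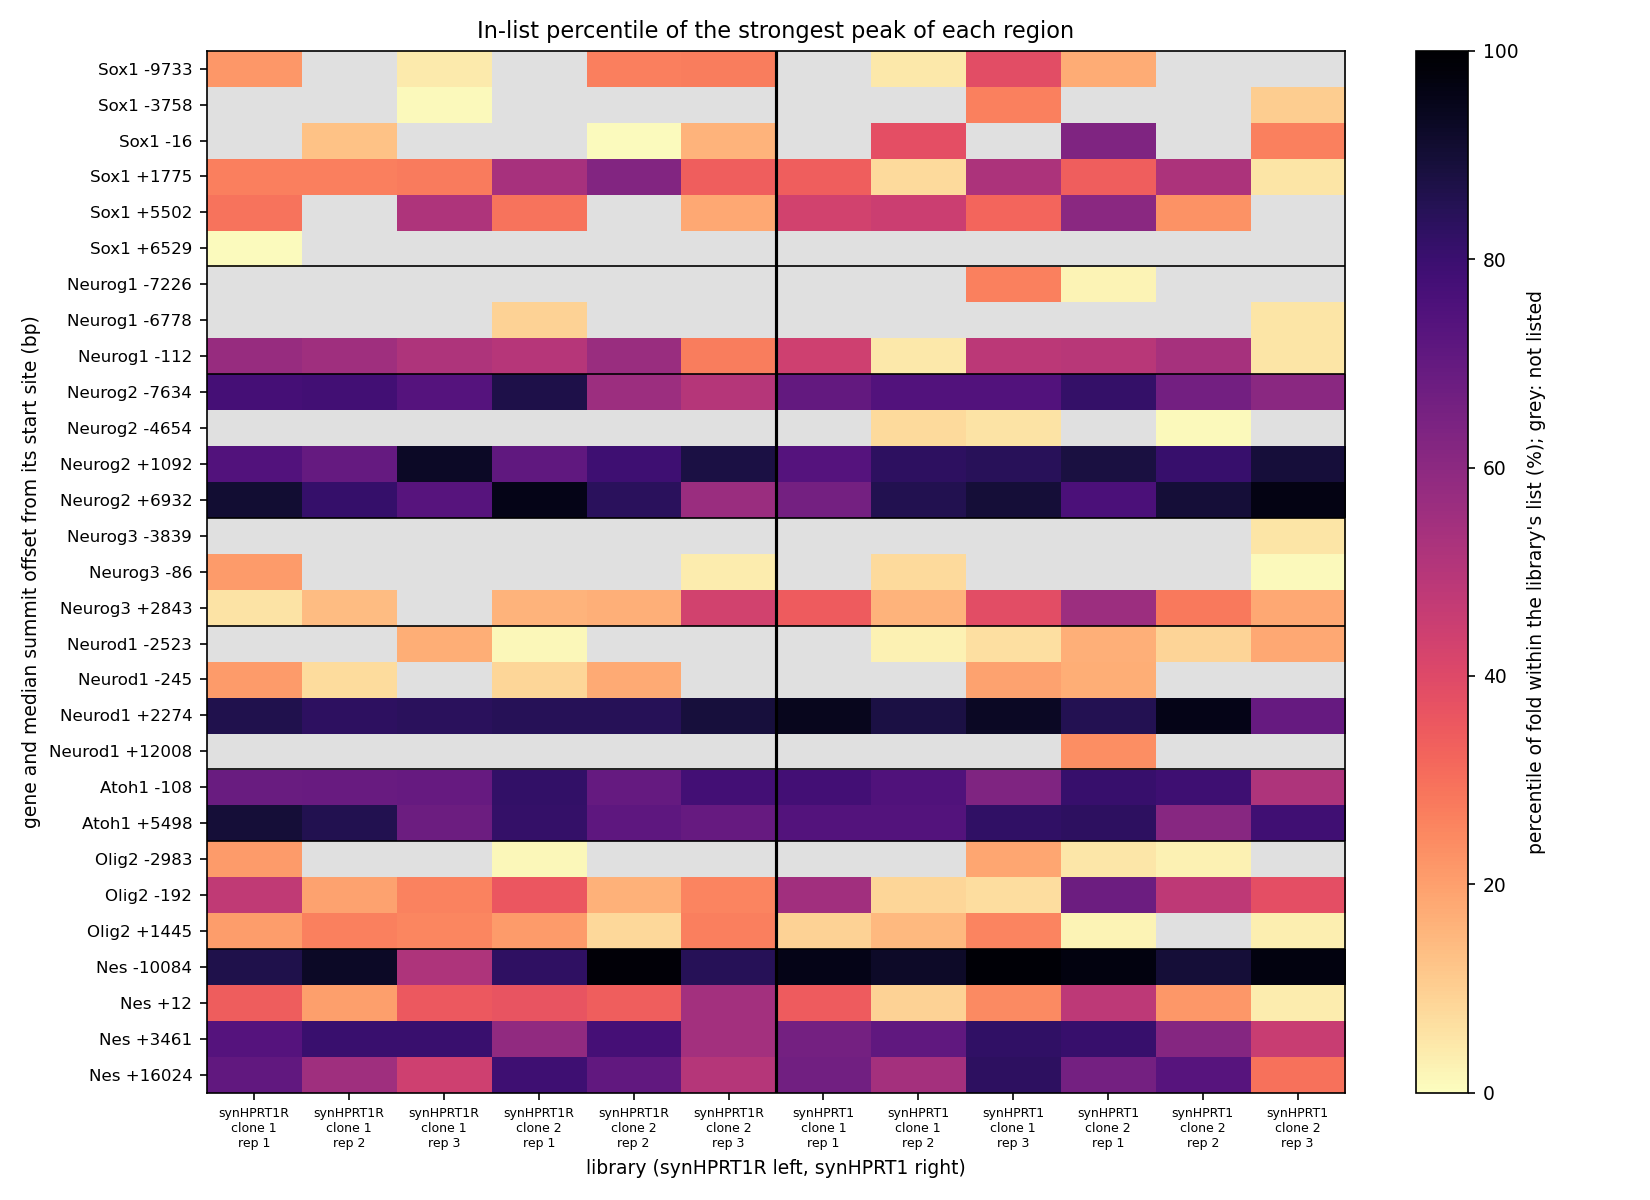
In-list percentile (colour, %) of the strongest peak of each of the 29 regions (rows, named by gene and median summit offset from the start site in bp) in each of the 12 libraries (columns, synHPRT1R left and synHPRT1 right); grey is not listed. Dark rows run through both genotypes at Nes -10084, Neurod1 +2274 and Neurog2 +6932, with medians of 92.6, 85.9 and 84.7, and no row is listed in all 6 libraries of 1 genotype and in none of the other.

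Every member except Neurog3 had a window peak in all 12 libraries, as had 67.9% of the 21883 protein-coding genes. Ordered by the median percentile of the strongest peak in the window, Nes came first at 92.6, followed by Neurog2 at 88.7, Neurod1 at 85.9, Atoh1 at 78.8, Neurog1 at 49.5, Sox1 at 48.3, Olig2 at 31.2 and Neurog3 at 21.0. The first place of Nes rests on the -10084 bp region at the window edge, which held its strongest peak in 11 libraries. Over the 12 libraries the ranges of the first 4 overlapped, from 69.2 to 98.9, and those of Neurog1, Sox1 and Olig2 overlapped, from 4.62 to 67.8. The lowest value of Atoh1, 69.2, was above the highest of Sox1, 63.0, and of Olig2, 67.8. Neurog3, where listed, ranged from 13.9 to 56.0 and overlapped Neurog1, Sox1 and Olig2.

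The 7 members with a window peak in all 12 libraries had a median of 78.8, against 81.7 for the 14867 genes with one and 74.6 for those of them with a span under 10 kb, a class that all 8 members belong to. With Neurog3, which does not meet that condition, the median of the 8 was 64.1. The median number of peaks per library was 2.75 in the members, 1 in genes with a span under 10 kb and 2 in all genes. In rank the median of the 7 lay between that of short genes and that of all genes, and in number of peaks that of all 8 lay above both. The 7 were spread widely around these medians. Nes, Neurog2, Neurod1 and Atoh1 were above the 74.6 of short genes, and Neurog1, Sox1 and Olig2 were below it, at 49.5, 48.3 and 31.2.

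Stricter lists drop low-ranked peaks first, so they restate this order rather than add to it, and they give its size in libraries. With each list limited to its 38403 best peaks by p-value, Neurog2, Atoh1, Neurod1 and Nes had a window peak in all 12, Sox1, Neurog1 and Olig2 in 11 and Neurog3 in 7. With only peaks of a −log10 q-value of 5 or more, the same 4 genes were in all 12, Sox1 and Olig2 in 10, Neurog1 in 9 and Neurog3 in 3. The share of all protein-coding genes in all 12 was 64.1% with equal lists and 57.1% at the stricter q-value.

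Over the 300-base promoters alone, Neurog1, Olig2 and Atoh1 had a peak in all 12 libraries, Nes in 11, Neurog2 in 7, Neurod1 in 6, Sox1 in 5 and Neurog3 in 3. All 12 were reached by 41.5% of all promoters and by 72.4% of the 9599 CpG-rich ones, against 3 of the 6 CpG-rich members. Among the 8830 promoters with a peak in all 12, the median percentile of the promoter peak had a median of 82.5 and quartiles of 69.1 and 91.3. Atoh1 had 72.3, above 30.3% of these promoters. Neurog1 had 49.5, above 6.00%, and Olig2 30.8, above 0.929%. So 2 of the 3 member promoters listed in every library lay below the lower quartile of such promoters.

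**Figure D3:**
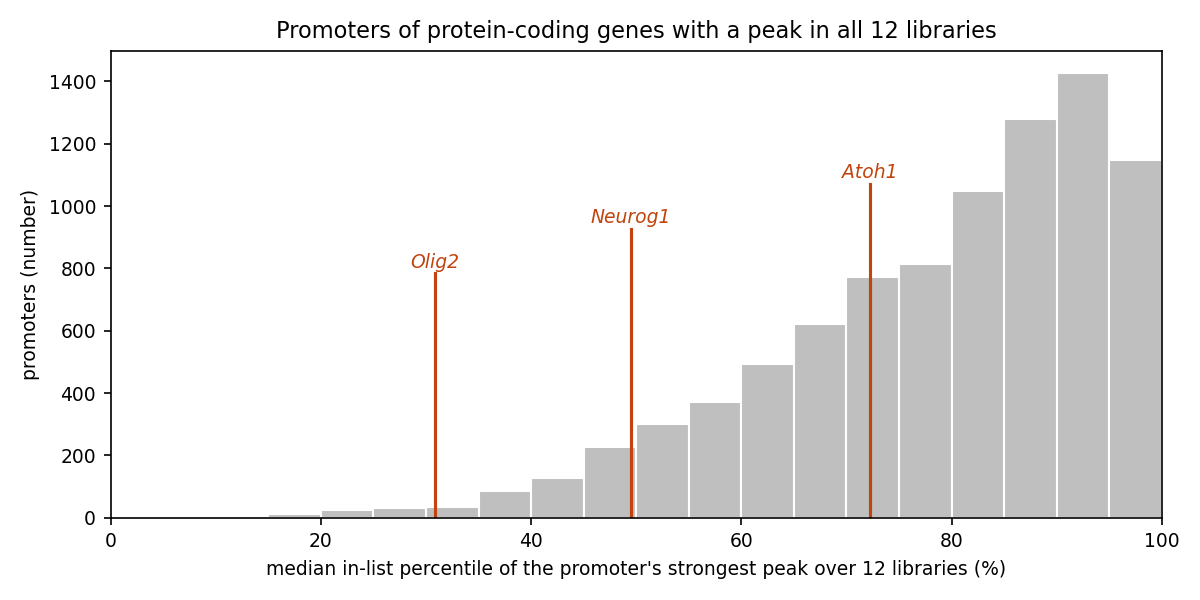
Number of promoters of 300 bases (vertical axis) by the median percentile, over 12 libraries, of the strongest peak on them (horizontal axis, %), for the 8830 promoters with a peak in all 12. Lines mark Olig2 at 30.8, Neurog1 at 49.5 and Atoh1 at 72.3, all left of the median of 82.5.

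Summit positions varied between libraries. The SD of the summit position over libraries had a median of 61.6 bp over the 13 shared regions, from 39.1 bp at the Neurog2 upstream region to 232 bp at the Nes start site, and a median of 160 bp over the partial regions listed in 2 or more libraries, from 50.2 bp to 372 bp. The ranges overlapped and the difference was not tested, and several partial regions rest on 2 or 3 libraries.

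The genotypes were compared next, on presence, number of peaks and rank. The synHPRT1R libraries listed 41737 to 58099 peaks in all, with 18 to 25 around the members, and the synHPRT1 libraries 38403 to 63704 peaks, with 19 to 25. The number of member peaks averaged 21.3 ± 2.58 in synHPRT1R and 23.3 ± 2.66 in synHPRT1 libraries (SD, n = 6 each). The 2 longest lists, both synHPRT1, held 10 of the 16 partial regions each, and the shortest, also synHPRT1, held 8. List length, the stand-in for depth here, averaged 48047.7 ± 5977.8 in synHPRT1R and 51629.5 ± 10047.3 in synHPRT1 libraries, and its part in the counts was not tested. A region missing from a list was not detected there, which does not show it closed.

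No region separated the genotypes. Of the 16 partial regions, 4 were listed in more synHPRT1R than synHPRT1 libraries, 9 in fewer and 3 in equal numbers. The lowest p was 0.182, at the Neurog2 -4654 bp region (0 of 6 synHPRT1R against 3 of 6 synHPRT1 libraries, Fisher's exact test, two-sided), and its adjusted p over 74604 regions was 1.0. Next came the Neurod1 -2523 bp region, in 2 against 5 libraries (exact p = 0.242). At an adjusted p under 0.05 the test called 0% of all partial regions, and 0.22% had an unadjusted p under 0.05, none of them around the members. Only a region listed in 5 to 7 of the 12 libraries can reach such an unadjusted p. Around the members these were Sox1 -16 bp, Olig2 -2983 bp, Neurod1 -2523 bp and Neurod1 -245 bp. The Sox1 -9733 bp region was tested as listed in 8, counting its part outside the window. For a region in 3 libraries 0.182 is the lowest p possible, so for most member regions the outcome was fixed in advance.

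**Figure D4:**
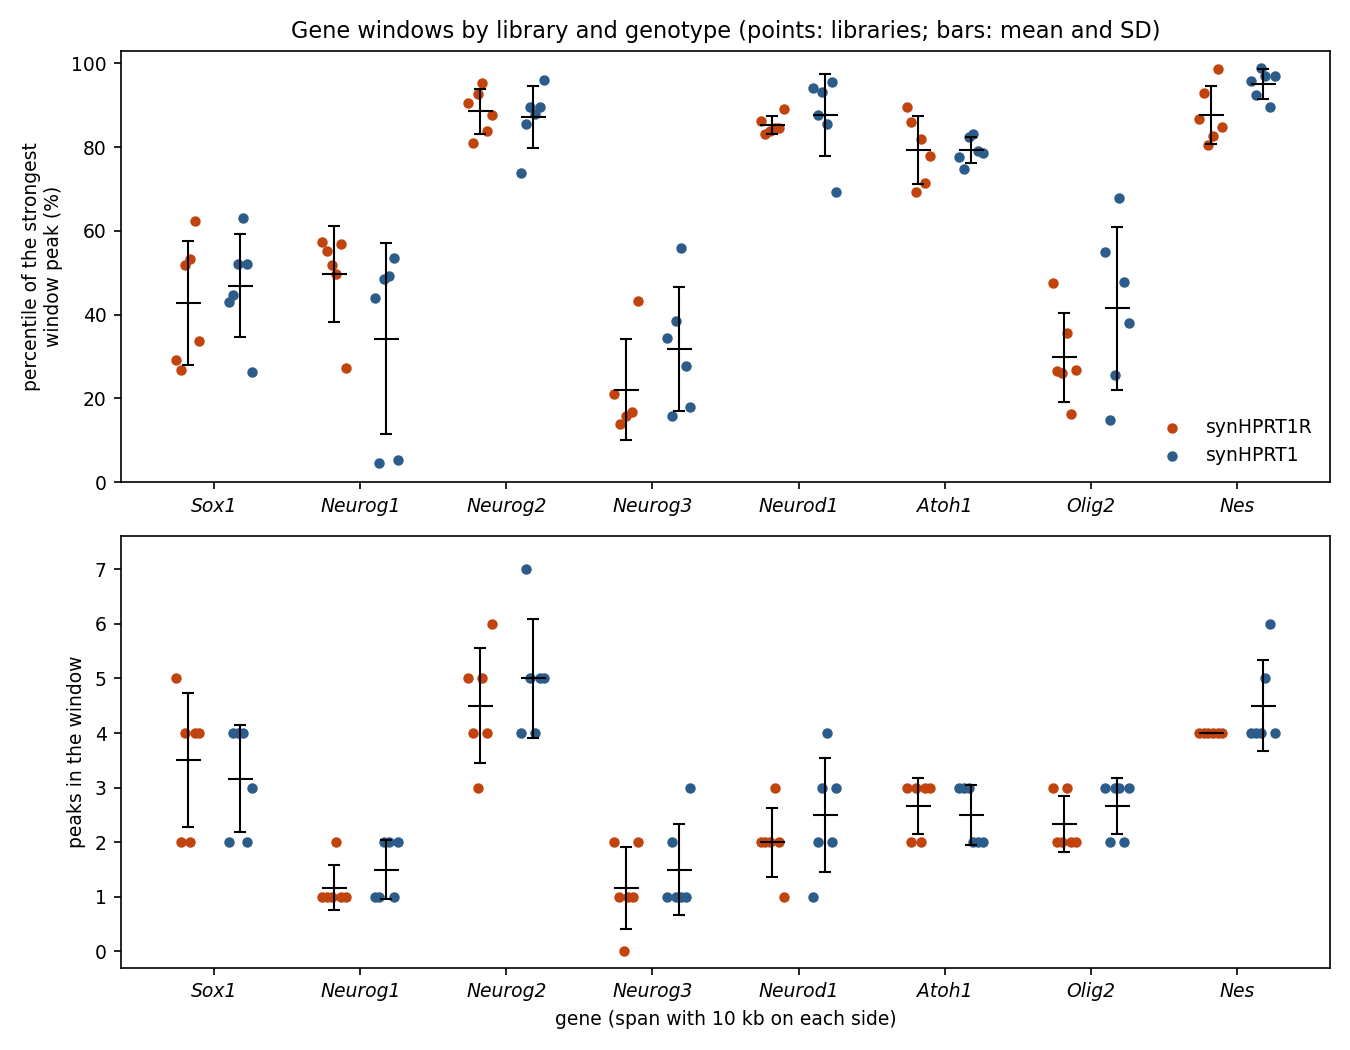
Percentile of the strongest window peak (top, %) and number of peaks in the window (bottom) for each gene, with 1 point per library, synHPRT1R in orange on the left and synHPRT1 in blue on the right, and the mean and SD in black. The genotypes overlap for every gene in both panels; for Nes the 6 synHPRT1R values run from 80.4 to 98.6 and the 6 synHPRT1 values from 89.5 to 98.9.

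The number of peaks per window did not differ beyond the spread between libraries for any member. Sox1 averaged 3.5 ± 1.22 peaks in synHPRT1R and 3.17 ± 0.983 in synHPRT1 libraries (SD, n = 6 each, two-sided exact permutation p = 0.805). Nes had exactly 4 in all 6 synHPRT1R libraries and averaged 4.5 ± 0.837 in synHPRT1 libraries (exact permutation p = 0.455, the lowest of the 8). The other differences ran from -0.5 peaks, in Neurog2 and Neurod1, to 0.17 peaks in Atoh1, 6 of the 8 members were lower in synHPRT1R, and each adjusted p was 1.0. The median difference was -0.33 peaks over the members and -0.17 over the 17051 genes tested. Adjusted for these genes the permutation test called 0%, and 1.2% had an unadjusted p under 0.05, with no member among them.

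For the rank of the strongest peak, Nes gave the only member p under 0.05 over the 12 libraries. Its percentile was 80.4 at the lowest, 85.6 at the median and 98.6 at the highest in synHPRT1R libraries, and 89.5, 96.3 and 98.9 in synHPRT1 libraries. The mean difference was -7.42 percentage points (exact permutation p = 0.0455, adjusted p = 0.963 over 14867 genes). Across these genes 0% passed after adjustment and 5.11% had an unadjusted p under 0.05, the share against which 1 of 7 tested members is to be read. The clone means were 86.6 ± 6.23 and 88.7 ± 8.67 in synHPRT1R clones 1 and 2 and 95.6 ± 3.29 and 94.5 ± 4.34 in synHPRT1 clones 1 and 2 (SD, n = 3 each). With a window of 5 kb on each side, which leaves out the -10084 bp region, the Nes difference was 3.04 points (exact permutation p = 0.688). Without synHPRT1 clone 2 replicate 3, the Nes exact permutation p was 0.0779, while the Neurod1 difference was -6.02 points, against -2.35 with all libraries, and its exact permutation p was 0.0238 (adjusted p = 0.802).

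Over all 12 libraries the widest mean difference was in Neurog1, at 49.7 ± 11.4 in synHPRT1R and 34.2 ± 22.8 in synHPRT1 libraries (SD, n = 6 each), with an exact permutation p of 0.19 and an adjusted p of 0.982. Within synHPRT1 the values were 44.0, 4.62 and 48.6 in clone 1 and 49.3, 53.5 and 5.36 in clone 2, so each clone held 1 library far below the others. Without the low library of clone 1 the Neurog1 difference was 9.56 points, and without that of clone 2 it was 9.71, against 15.5 with both; Olig2 then had the wider difference, -17.0 and -12.4 points. Olig2 averaged 29.8 ± 10.6 in synHPRT1R and 41.5 ± 19.4 in synHPRT1 libraries (exact permutation p = 0.238, adjusted p = 0.989). The differences of Sox1, Neurod1, Neurog2 and Atoh1 were -4.04, -2.35, 1.40 and 0.07 points, with exact permutation p-values of 0.617, 0.63, 0.725 and 0.981. Neurog3 had no test because 1 library had no value. The median difference was -2.35 points over the 7 members and -0.96 over all genes tested, and a p above the threshold does not show that the genotypes are alike.

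Clones are the independent unit, and 2 clones against 2 cannot give an exact p below 0.333. Within a genotype, no region was listed by the 3 libraries of 1 clone while missing from the 3 of the other. In number of window peaks the synHPRT1 clones did separate at Atoh1, with 3 in each library of clone 1 and 2 in each of clone 2. The further peak lay in the Atoh1 start-site region, which all 12 libraries listed. Differences between clones were not tested, and 3 libraries against 3 cannot give an exact p below 0.1. Separate cultures for the replicates of a clone are not mentioned in the labels, and the tests therefore weigh differences only against the spread among these libraries, which may be technical.

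Genes that act with or against the members gave a setting for these values, and list medians here are over the genes with a window peak in at least 1 library. Of 14 other proneural and related bHLH genes, 10 had a window peak in all 12 libraries and none lacked one in every library, and their median percentile was 57.1, with Neurod4 highest at 93.5 and Bhlhe22 at 76.2. All 20 genes of a list of Notch pathway and Id genes, not all of them antagonists of proneural factors, had one in all 12. Their median was 68.0, led by the receptor Notch2 at 92.6 and the ligand Jag1 at 92.6. All 20 other early neural genes did so too, at a median of 56.9, with the zinc finger gene Zfp521 at 93.2. Sox2 belongs both to this list and to the embryonic stem cell markers below. A window peak in all 12 was found for 67.9% of all protein-coding genes and 48.4% of those spanning under 10 kb. These lists had no limit on span, and a longer span gives a longer window. Notch2, Jag1 and Zfp521 span 136830, 35070 and 285737 bp, whereas all members span under 10 kb. Neurod4 and Bhlhe22, the highest of the bHLH list, are shorter, at 12103 and 3190 bp. The part of span in these values was not tested. The median number of peaks per library was 1.5 in the bHLH list, 2.75 in the Notch and Id list and 3.75 in the early neural list. No gene of these 3 lists passed either permutation test after adjustment, and at an unadjusted p under 0.05 there were 2 early neural genes for rank and 1 for peak number.

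Markers of cell types were checked in the same way, against the 67.9% of all protein-coding genes with a window peak in all 12. All 10 embryonic stem cell markers had one, at a median percentile of 68.2 and led by Tfcp2l1 at 84.5 and Lin28a at 83.5. So had 7 of 10 neuron markers, at a median of 63.8 and with Syn1 at 90.9 and Snap25 at 90.6. Of 8 glia markers 4 had one, at a median of 50.5 and with Mbp at 85.1 and Mog at 84.4. Of 10 fibroblast and feeder markers 7 had one, at a median of 76.1 and with Fn1 at 90.1 and Col3a1 at 88.3. S100b and Postn had no peak in any library. Of 10 genes silent in embryonic stem cells, 3 had a window peak in all 12 and 5 had none in any library, among them Alb and Cd3e; the median of those with a peak was 59.3, led by Apoa2 at 88.4 and Krt10 at 66.9. The neuron and fibroblast counts were near the share of all genes. No limit on span was set for the markers either, and Snap25, Mbp and Fn1 span 68990, 110547 and 67808 bp, but Mog and Apoa2 only 12659 and 4816 bp. No marker passed either permutation test after adjustment, and at an unadjusted p under 0.05 there was 1 neuron marker for rank and 1 glia marker for peak number. The part of other cell types in the members' peaks was not tested.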

How the data were processed

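Per the labels, ATAC-seq was done on cultured cells, and the submitters' processing notes name MACS2 2.1.0, Bowtie2 2.2.9, deepTools 3.5.0, SAMtools 1.9 and bcl2fastq 2.20 with GRCm38 and mm10. Their settings and any read shift for Tn5 were not given in the sources used here. The authors deposited 1 peak list per library. Its columns hold a fold, the ratio of summit signal to local background, and the −log10 p-value and −log10 q-value deposited with it; the lowest −log10 q-value was 1.30. No reads or depths were used, so list length stands in for depth.

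Peaks overlapping a gene span with 10 kb on each side were merged over libraries. Gene spans, start sites and promoters came from RefSeq tables of GRCm38.p6, and all 8 members matched. The tables give no exons, so exonic and intronic positions were not determined. Presence was tested with Fisher's exact test over 74604 partial regions, and peaks per window (17051 genes) and the strongest percentile (14867 genes) with exact permutation tests over 924 groupings, all two-sided, with Benjamini-Hochberg adjustment. The smallest p any of these can give is 0.00216, and at least 739 and 644 fully separated genes would be needed for a call on peaks and rank. The permutation test on peak counts, Fisher's test and the adjustment were tried on simulated data, and percentiles were not simulated. Changes in peak counts were placed only in genes averaging more peaks per window than any member did. Alternatives varied list length, q-value, window, overlap, rank column, measure, replicate block and left-out library. All members and, from each other list, the 2 highest genes and up to 3 without peaks were named, except for items not reported here. The members and the gene lists were chosen with earlier results of these data known. Replicate numbers did not pair the libraries. Python 3.11.15, SciPy 1.17.1, pandas 2.3.3 and numpy 2.4.6 were used.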

Additional observations from a re-analysis of the deposited data

Results flagged for a closer look

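In 6 of 58 groups, 57 of 6 libraries and 1 of 5, 1 library lay farther from the others than Dixon's 95% bound allows. For continuous and separate values chance flags about 1 group in 20, a rate that does not hold for small whole-number counts of peaks or for a value that enters 2 groups. Neurog1 had 2 peaks in its window in the synHPRT1R clone 2 replicate 1 library and 1 peak in each of the other synHPRT1R libraries. The strongest Neurog1 peak, which is its start-site region, stood at a percentile of 27.2 in synHPRT1R clone 2 replicate 3 and between 49.7 and 57.3 in the others of that genotype; this gave 2 of the 6 flags. In the same library the strongest Neurog3 peak stood at 43.2, against 13.9 to 21.0 in the other 4 synHPRT1R libraries with a value. The Nes region at -10084 bp stood at 51.9 in synHPRT1R clone 1 replicate 3 and between 82.7 and 98.6 in the other synHPRT1R libraries. Neurog2 had 7 window peaks in synHPRT1 clone 1 replicate 2, against 4 to 5 in the other synHPRT1 libraries. No explanation of these values was tested.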

How the results depend on the processing

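No member passed an adjusted p of 0.05 in any of the 20 alternatives, and no other gene or region did. In the main analysis a call needed at least 739 fully separated genes on peaks and 644 on rank. The absence of calls therefore does not show that the genotypes are alike. Of 367 recomputed values, 333 were classed as unchanged and 28 as reversed. The unchanged class took in counts of called members that stayed at 0, counts that moved little and differences that became 0. The number of members with a window peak in all 12 libraries was 4 with lists of equal length and 4 with only peaks of a −log10 q-value of 5 or more. Regions in all 12 numbered 8 at that q-value, 8 with a 2 kb flank and 3 where a peak had to cover 50% of the region, and member regions numbered 14 with a 2 kb flank. The planned overlap rule for the number of member regions could not change it, since a peak always lies inside its merged region.

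Differences that changed sign, all uncalled, were these. In peaks per window, lists of equal length gave 0.83 for Olig2 and 0.17 for Neurod1 and Nes; the stricter q-value gave -1 for Sox1, 0.17 for Neurog1, 0.67 for Olig2, 0.17 for Neurod1 and 0.5 for Nes; a 5 kb flank gave -0.17 for Sox1; and a 2 kb flank gave -0.17 for Sox1, 0.17 for Neurog2 and 0.33 for Neurod1. Counted as covered bases, Neurog1 had 181.3, Atoh1 -106 and Nes 275.5. In percentile, Atoh1 had -2.002 at the stricter q-value and -0.17 ranked by p-value, Neurog2 -4.13 with a 2 kb flank and -0.22 ranked by p-value, and Nes 3.04 with a 5 kb and with a 2 kb flank. Leaving out 1 library moved the Atoh1 difference between -1.99 and 2.09 and the Neurog2 difference between -1.27 and 3.20. The other rank differences kept their sign, from 9.56 to 20.0 in Neurog1, -17.0 to -6.41 in Olig2, -8.17 to -0.82 in Sox1 and -6.02 to -0.73 in Neurod1. The causes were not tested.

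With the replicate block, 216 groupings, 0 members were called on peaks and 0 on rank, and the exact permutation p of Nes was 0.0741. Deviations of same-numbered libraries correlated from -0.136 to 0.128, and 2 of 12 libraries correlated best with their own number, so the numbers were not taken to pair them. Leaving out 1 library gave 7 to 8 members with a window peak in all 12. The Nes rank difference ran from -9.62 to -5.97 over the left-out libraries, with exact permutation p from 0.0108 to 0.0887. Pairs of libraries shared 52.7% to 64.6% of the regions listed in either of the pair.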
